A study of Mus musculus with 12 samples.

Results

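Aquaporins are membrane channels for water, and a subgroup of them also passes glycerol and other small solutes. The 6 members described here, Aqp1, Aqp4, Aqp5, Aqp7, Aqp8 and Aqp11, were followed across hearts that differed in genotype and age. They were taken as all transcript probes of the arrays that carry one of these gene names, which gave 9 probes of 41174 and 6 genes of 18273 that were tested. Aqp8 was singled out because it changed with genotype and time in these same hearts, so its differences are given as a description, with no test. The other 5 genes were taken by family membership, with earlier results of these data known, and their p-values were adjusted over all genes tested.

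The hearts came from male C57BL/6 mice. All of them carried floxed alleles of GR and MR, the glucocorticoid and the mineralocorticoid receptor. The cardioGRMRdKO mice also carried αMHC-Cre, which acts in cardiomyocytes, whereas their dflox littermates had no Cre, so receptor loss and Cre itself cannot be told apart. Whole hearts were taken at 1 month and at 2 months of age, with 3 mice and 3 arrays in each of the 4 groups. A heart also holds cells in which this Cre is not active, and in whole tissue fewer cells of a type and less RNA per cell cannot be told apart. Between 63.7% and 71.9% of transcript spots per array were well above background. Nr3c1, the GR gene, was lower in cardioGRMRdKO hearts at 2 months, by a log2 difference of −1.10 (SE 0.137, n = 3 and 3, limma adjusted p = 0.00567). At 1 month, with usable spots in 2 hearts per genotype, it stood at −0.73 (adjusted p = 0.12). No value of the MR gene is given here. The 12 arrays lay on 3 slides, and each genotype comparison could be made within 2 of them. At 1 month all dflox arrays were at outer places of a slide and all cardioGRMRdKO arrays at inner places. There the position of an array and its genotype cannot be told apart. Defining cardiomyocyte transcripts were bright in all 12 hearts, with a mean log2 level from 6.24 to 6.70 over the 6 of 8 markers that had a value in every heart, where 0 is the 75th percentile of the array.

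In textbook terms the members have separate sites of action. Aqp1 is the water channel of capillary endothelium and red cells. Aqp4 is best known from brain and skeletal muscle, where the dystrophin complex holds it at the membrane. Aqp7 carries glycerol in fat and heart muscle, Aqp8 passes water, ammonia and hydrogen peroxide and is known from gut, liver and pancreas, Aqp11 lies on internal membranes, and Aqp5 belongs to glands and to lung epithelium.

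Aqp8, on which the pattern turns, was read by a single probe of 60 bases on mm7 chr7:119570588-119570647, plus strand. Its first 30 bases are shown because all Aqp8 values rest on this one oligo.

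Aqp8 probe, bases 1 to 30: agaaggtctttcaggagcccaaagatcttg

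Aqp7 was read by 2 probes that are tiled over one another on chromosome 4, sharing 38 bases, and they are shown because their letters differ. Counted from 1 at the 5′ end of the first probe below, the difference is G40A, given in capitals in the 30 bases from mm7 chr4:41172679-41172708, minus strand.

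Aqp7 probe A_52_P403405: gtagagcttctctttGaccacaaccgtact

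Aqp7 probe A_51_P378063: gtagagcttctctttAaccacaaccgtact

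The 3 Aqp4 probes lie within 696 bases on chromosome 18, at 15742177 to 15742872. The Aqp1 probe is on chromosome 6 (55311856 to 55311915), that of Aqp5 on chromosome 15 (99579945 to 99580003) and that of Aqp11 on chromosome 7 (93757914 to 93757973). Exons and UTRs are not given, since no annotation of mm7 was used here.

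Aqp8 was higher in cardioGRMRdKO than in dflox hearts at both ages, and higher at 2 months than at 1 month in both genotypes. At 1 month the dflox hearts had log2 levels of −2.36, −1.05 and −1.88. The cardioGRMRdKO hearts of that age had −0.30, 0.69 and 0.27. The lowest knockout heart lay above the highest dflox heart, and in this comparison groups were apart in 18.6% of genes. The group difference was 1.98 (SE 0.34, n = 3 and 3), which is 3.94-fold.

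At 2 months the dflox hearts had Aqp8 levels of −0.02, 0.58 and 0.63. The cardioGRMRdKO hearts had 1.87, 2.18 and 2.04. Again the genotypes were apart, as in 17.5% of genes, with a difference of 1.63 (SE 0.34), or 3.11-fold. With age, Aqp8 was 4.46-fold higher in dflox (log2 2.16, SE 0.34) and 3.52-fold higher in cardioGRMRdKO hearts (1.81, SE 0.34). The genotype difference at 2 months less that at 1 month was −0.34 (SE 0.481).

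In order of their means the groups ran from dflox at 1 month (−1.76 ± 0.665, SD, n = 3), through cardioGRMRdKO at 1 month (0.22 ± 0.498) and dflox at 2 months (0.39 ± 0.358), to cardioGRMRdKO at 2 months (2.03 ± 0.156). The middle pair overlapped and differed by −0.18 (cardioGRMRdKO at 1 month less dflox at 2 months), a gap smaller than the SD of either group. From the lowest to the highest group the difference was 3.79 (SE 0.34), or 13.9-fold. Groups that were apart and higher in all 4 of the genotype and age comparisons were found for 0.399% of genes with all values, from which nothing is read here because Aqp8 was chosen on these comparisons.

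**Figure D1:**
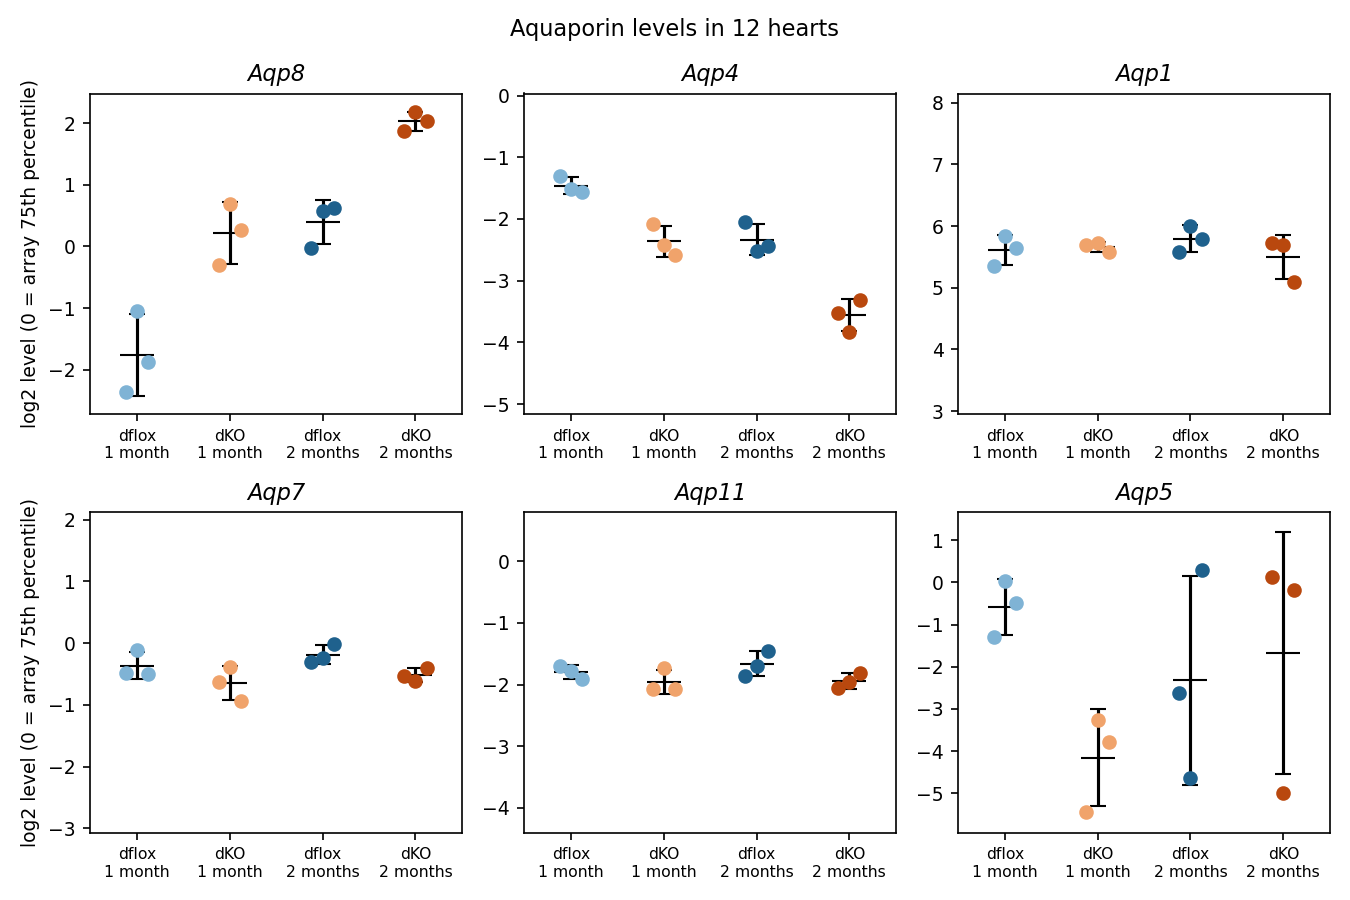
Log2 level of each aquaporin in the 12 hearts (0 is the 75th percentile of the array), by group, where dKO stands for cardioGRMRdKO. Points are hearts, bars are mean ± SD, and every panel but that of Aqp5 spans the same number of log2 units. Aqp8 climbs from −1.76 to 2.03 over the 4 group means, while Aqp4 descends from −1.46 to −3.56.

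Within slides the Aqp8 genotype difference at 1 month was 3.05 on slide 1 and 1.73 on slide 2, and at 2 months it was 2.06 on slide 1 and 1.58 on slide 3. These rest on 1 or 2 hearts per group. The age difference was 2.34 on slide 1 in dflox, and 1.35, 1.60 and 2.49 on slides 1, 2 and 3 in cardioGRMRdKO hearts. Markers of organs known for Aqp8 were read too. The mean log2 level over the 12 hearts ran from −2.12 to −1.19 for 4 tested of 8 hepatocyte markers, from −4.59 to −2.91 for 4 of 8 pancreatic acinar markers and from −3.26 to −2.44 for 6 of 8 intestinal epithelial markers. Single markers were bright in every heart, namely the hepatocyte gene Ahsg at 0.88 to 2.35 and the intestinal gene Lgals4 at 2.04 to 2.90, both named after their values were seen. Alb, the albumin gene that defines hepatocytes, was well above background on no array of either 1-month group. In each 2-month group it was above it on at least 1 array, but it did not reach the filter and was not tested. In cardioGRMRdKO hearts 3 of the 4 hepatocyte, 0 of the 4 pancreatic and 5 of the 6 intestinal markers were lower at 1 month, and 2, 4 and 5 at 2 months, none past the test. Their part in the Aqp8 values was not tested.

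The genes whose pattern lay nearest to Aqp8 were found by the root mean square distance over the 12 hearts, after each gene's mean was subtracted. They were Kcnj14, an inward rectifier potassium channel gene (distance 0.56 log2 units), Polq, which encodes DNA polymerase theta (0.58), Cpxm2, a carboxypeptidase-like gene (0.58), Lman1l, a lectin-like gene (0.59), and BC048679 (0.59). Cpxm2 went from a group mean of −1.47 in dflox at 1 month to 1.48 in cardioGRMRdKO at 2 months. Kcnj14 went from −4.40 to −1.67 between the same groups. Its middle groups, cardioGRMRdKO at 1 month and dflox at 2 months, lay near one another, at −3.09 and −3.35. Those of Polq were at −3.03 and −2.97 and those of BC048679 at −3.84 and −3.35. They were further apart in Cpxm2, at −0.96 and 0.08, and in Lman1l, at −0.76 and −1.69. These 5 genes were picked for their nearness to Aqp8 in these same hearts, so nothing is read from the likeness of their group means. No aquaporin was among them.

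Aqp4 ran the opposite way. On its brightest probe the dflox hearts of 1 month had log2 levels of −1.30, −1.52 and −1.55. The cardioGRMRdKO hearts of that age had −2.08, −2.42 and −2.58, below all 3 controls, and the genotypes were apart in 18.6% of genes. The difference was −0.90 (SE 0.182, n = 3 and 3), 1.87-fold, which did not pass the threshold (limma adjusted p = 0.0527).

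At 2 months Aqp4 was at −2.05, −2.52 and −2.43 in dflox hearts. In cardioGRMRdKO hearts it was at −3.53, −3.83 and −3.31, below all controls of that age, and the genotypes were apart in 17.5% of genes. Aqp4 thus fell by 1.22 on the log2 scale (SE 0.182, adjusted p = 0.00674), or 2.33-fold. With age Aqp4 fell in cardioGRMRdKO hearts by 1.20 on the log2 scale (SE 0.182, adjusted p = 0.0343). In dflox hearts the age difference was −0.88 (SE 0.182, adjusted p = 0.0638), with groups that did not overlap, as in 20% of genes; in cardioGRMRdKO hearts age set groups apart in 18.1%. The genotype difference did not pass the test for a change with age (−0.32, SE 0.258, adjusted p = 0.934).

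From high to low the Aqp4 group means were those of dflox at 1 month (−1.46 ± 0.137, SD, n = 3), dflox at 2 months (−2.33 ± 0.248) and cardioGRMRdKO at 1 month (−2.36 ± 0.254) side by side, and cardioGRMRdKO at 2 months (−3.56 ± 0.259). The groups at the ends were those at the ends for Aqp8, with high and low exchanged. The middle pair differed by −0.03 (95% interval −0.43 to 0.38). Over the whole range Aqp4 was 4.28-fold lower. Of all genes with all values, 0.242% had groups that were apart and lower in each of the 4 genotype and age comparisons. These comparisons reuse the same 4 groups, and the joint pattern was looked at with the values known, so nothing is read from this share.

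Within slides the genotype difference of Aqp4 was −1.11 on slide 1 and −1.04 on slide 2 at 1 month, and −1.26 on slide 1 and −1.35 on slide 3 at 2 months. Its age difference was −0.75 on slide 1 in dflox and −0.90, −0.95 and −1.75 on slides 1, 2 and 3 in cardioGRMRdKO hearts. The 9 tested of 10 markers of fast skeletal muscle, a tissue rich in Aqp4, had a mean level from −1.60 to −0.76 over the 12 hearts. Single members were bright in every heart, namely Myh4 at 6.86 to 7.66, Atp2a1 at 4.05 to 4.62 and Tnni2 at 0.52 to 1.90. The others, Myh1, Myh2, Actn3, Tnnt3, Tnnc2 and Myog, were below 0 in every heart, with Myh2 at −5.56 to −3.78 and Tnnc2 at −2.29 to −1.15. All are named after their values were seen. In cardioGRMRdKO hearts 6 of the 9 were lower at 1 month and 7 at 2 months, none past the test, and their part in the Aqp4 values was not tested.

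The other Aqp4 probes gave the same signs, with wider errors. Probe A_52_P25710 stood at −0.93 and −1.19 for genotype at 1 and 2 months, and probe A_52_P625527 at −1.11 and −1.67. For age they gave −0.83 and −0.84 in dflox and −1.10 and −1.40 in cardioGRMRdKO hearts. In a fit of single probes neither passed the test in any of these comparisons (adjusted p from 0.0744 to 0.406). The 3 probes are separate sites that do not overlap, and A_52_P625527 was well above background on 2 of the 3 arrays of cardioGRMRdKO hearts at 2 months.

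**Figure D2:**
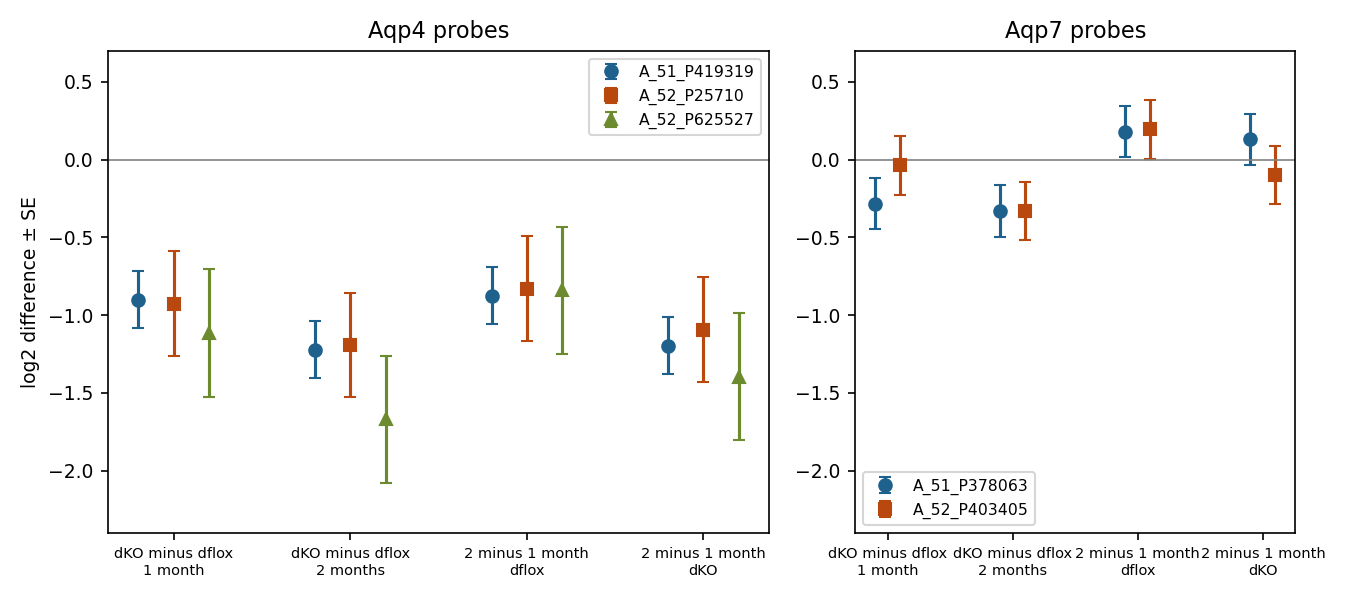
Log2 differences ± SE of each Aqp4 and Aqp7 probe in the genotype and age comparisons, from a limma fit over single probes (dKO is cardioGRMRdKO). All 3 Aqp4 probes lie below 0 in all 4 comparisons, and the overlapping Aqp7 probes lie between −0.33 and 0.19.

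The 1-month difference of Aqp4, not called in the fit above, passed in 6 of 23 alternative fits (lowest adjusted p = 0.0406), among them those with the slide as a random block (0.0441) and with the replicate number as a block (0.0455). The call for Aqp4 at 2 months was lost when the fit held only the 6 hearts compared (adjusted p = 0.0816). The age call in cardioGRMRdKO hearts was the less firm one: it passed in 10 of 23 alternative fits, and was lost without any single cardioGRMRdKO heart, without dflox 1-month replicate 3 and without dflox 2-month replicate 3 (adjusted p up to 0.122). With normexp background correction the differences of this dim gene shrank, to −0.46 for age in dflox and −0.60 for genotype at 1 month.

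Aqp4 was the 1 of the 5 aquaporins other than Aqp8 that passed the test at 2 months and in the age comparison of cardioGRMRdKO hearts. Over all genes 2.31% and 0.378% were called there. At 1 month and in the age comparison of dflox hearts none of the 5 was called, where 0.969% and 0.553% of genes were, and at an unadjusted p under 0.05 Aqp4 and Aqp5 passed at 1 month, as did 9.39% of all genes, and Aqp4 with age in dflox, as did 14.1%. With so few members such counts say nothing of the family.

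**Figure D3:**
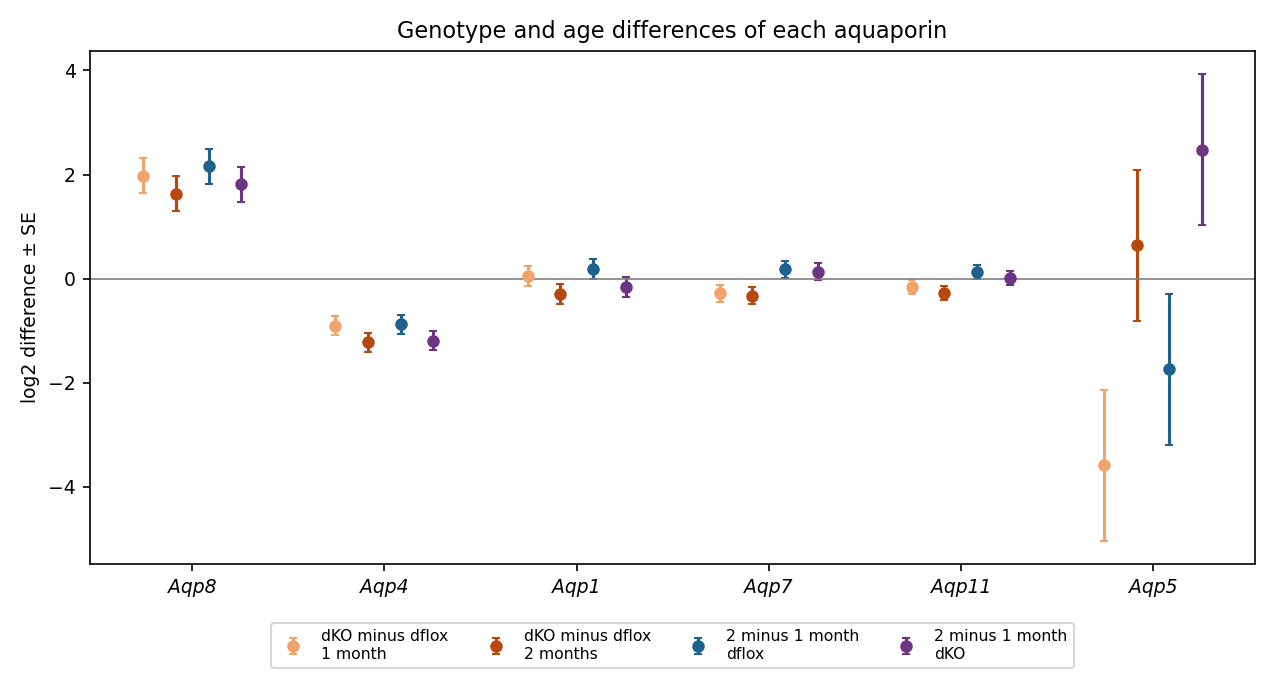
Log2 differences ± SE for the 6 aquaporins in the 2 genotype and 2 age comparisons, from the limma fit over all genes (dKO is cardioGRMRdKO). Aqp8 lies between 1.63 and 2.16 in all 4, Aqp4 between −1.22 and −0.88, and Aqp1, Aqp7 and Aqp11 between −0.33 and 0.18.

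Aqp1, the endothelial and red cell channel, gave an intensity from 25840 to 41960. Its log2 level was 5.35, 5.83 and 5.64 in dflox hearts at 1 month. In cardioGRMRdKO hearts of that age it was 5.69, 5.73 and 5.57. At 2 months the values were 5.58, 6.01 and 5.80 in dflox and 5.73, 5.69 and 5.09 in cardioGRMRdKO hearts.

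All 4 Aqp1 groups overlapped their neighbours. The genotype difference was 0.05 at 1 month (95% interval −0.38 to 0.48, adjusted p = 1.00) and −0.29 at 2 months (−0.72 to 0.14, adjusted p = 0.469), so a change as large as that of Aqp4 at 2 months lies outside both intervals. The low value of 5.09 belongs to cardioGRMRdKO 2-month replicate 3. In that heart the mean of 5 erythroid markers was −0.19, inside the range of −1.28 to 0.64 over all 12 hearts, and the mean of 6 cardiomyocyte markers was 6.24, against 6.38 to 6.70 in the other hearts. Without it the age difference in cardioGRMRdKO hearts was 0.05 in place of −0.16. The 12 endothelial markers had a mean level from 2.39 to 2.78 over all hearts, and 11 of them were lower in cardioGRMRdKO hearts at 1 month and 9 at 2 months, none past the test. Of the 6 tested of 10 erythroid markers, 4 were lower in cardioGRMRdKO hearts at 1 month and all 6 were higher at 2 months, none past the test. The part of either cell type in the Aqp1 values was not tested.

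Aqp7, the glycerol channel, moved little. On probe A_51_P378063 the dflox hearts had −0.48, −0.11 and −0.50 at 1 month. The cardioGRMRdKO hearts had −0.63, −0.38 and −0.93 then. At 2 months dflox hearts had −0.31, −0.24 and −0.01, and all 3 cardioGRMRdKO hearts were lower, at −0.54, −0.62 and −0.39. That difference of −0.33 (SE 0.164) did not pass the test (95% interval −0.69 to 0.03, adjusted p = 0.36), and groups were apart in 17.5% of genes in this comparison.

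The overlapping Aqp7 probe A_52_P403405 gave the same value at 2 months, −0.33 (SE 0.188). At 1 month the probes gave −0.28 and −0.04 and for age in cardioGRMRdKO hearts 0.13 and −0.10, and the probes disagree in sign there. Within slides the 2-month difference of probe A_51_P378063 was −0.09 on slide 1 and −0.49 on slide 3. The mean of 8 of 10 adipocyte markers was 1.05, 3.77 and 3.60 in cardioGRMRdKO hearts of 1 month, where Aqp7 stood at −0.63, −0.38 and −0.93. In cardioGRMRdKO hearts of 2 months it was 3.79, 1.62 and 4.16, with Aqp7 at −0.54, −0.62 and −0.39. The heart highest in the markers was highest in Aqp7 in every group on this probe. On probe A_52_P403405 that failed in cardioGRMRdKO hearts of 1 month. The full order matched only in cardioGRMRdKO hearts of 2 months. Over all hearts that marker mean ran from 1.05 to 4.19. All 9 tested markers were lower in cardioGRMRdKO hearts at 1 month and 2 at 2 months, none past the test, and their part in the Aqp7 values was not tested.

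Aqp11, the channel of internal membranes, differed little between groups. Its log2 levels were −1.70, −1.78 and −1.91 in dflox and −2.08, −1.73 and −2.07 in cardioGRMRdKO hearts at 1 month. At 2 months they were −1.85, −1.69 and −1.45 in dflox and −2.06, −1.95 and −1.81 in cardioGRMRdKO hearts. The groups overlapped at both ages. The genotype difference was −0.16 (95% interval −0.47 to 0.15, adjusted p = 0.931) and −0.28 (−0.59 to 0.03, adjusted p = 0.365), and the age difference was 0.13 in dflox and 0.02 in cardioGRMRdKO hearts, none past the test. On slides 1 and 3 the 2-month difference was 0.04 and −0.38.

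Aqp5 behaved unlike the rest, with large differences between hearts of one group. It was at −1.28, 0.04 and −0.49 in dflox hearts at 1 month. In cardioGRMRdKO hearts of 1 month it was at −5.45, −3.25 and −3.77, with 2 of the 3 arrays well above background. At 2 months the dflox hearts had −2.62, −4.64 and 0.30 and the cardioGRMRdKO hearts 0.12, −4.98 and −0.18. The genotypes were apart at 1 month, as in 18.6% of genes, and mixed at 2 months. The difference of −3.58 at 1 month had an SE of 1.45 and did not pass the test (adjusted p = 0.45), nor did the 0.64 at 2 months (adjusted p = 0.834). Within slides the latter was 2.44 on slide 1 and −2.81 on slide 3.

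On their mean, markers of airway epithelium split the hearts into high and low ones as Aqp5 did. The mean level of the 9 of 12 markers with a value in every heart was 0.93, 1.69 and 1.63 in dflox and −1.24, −2.13 and −2.51 in cardioGRMRdKO hearts at 1 month. At 2 months it was −1.11, −2.39 and 2.09 in dflox and 1.67, −2.61 and 1.70 in cardioGRMRdKO hearts. The same 6 hearts were high in both, namely the 3 dflox hearts of 1 month, dflox 2-month replicate 3 and cardioGRMRdKO 2-month replicates 1 and 3. Among the low hearts the order differed. There cardioGRMRdKO 1-month replicate 1 was lowest in Aqp5 (−5.45) but above replicates 2 and 3 of its group in the marker mean. The ranges of Dnah5 and Tppp3, named after their values were seen, overlapped between the high and the low hearts. The log2 of the summed markers ran from 6.06 to 7.17 in dflox and from 2.29 to 3.13 in cardioGRMRdKO hearts at 1 month, and from 2.15 to 7.54 and from 1.92 to 7.36 at 2 months. Foxj1, which defines ciliated cells and is named after its values were seen, was well above background on none of the cardioGRMRdKO arrays at 1 month, while Scgb1a1, the secretoglobin of club cells, was above it on all 12 and ranged from −1.49 to 5.63. At 1 month 9 of the 10 tested airway markers were lower in cardioGRMRdKO hearts, and at 2 months 8 were higher, none past the test.

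The mean of 8 tested of 10 alveolar markers ran from −2.24 to −1.25 in the 6 hearts high in Aqp5, and in the other 6 from −3.71 to −1.91. Single members differed, and all but Sftpc are named after their values were seen. Sftpd, a surfactant protein gene, ran from −2.17 to −0.58 in the hearts high in Aqp5 and from −7.62 to −3.89 in the others, and Sftpa1 from −1.87 to 0.54 and from −7.74 to −2.54. The ranges of Lamp3, Slc34a2, Napsa, Rtkn2 and Abca3 overlapped between these sets of hearts. For Lamp3 they were 0.09 to 0.69 in the hearts high in Aqp5 and 0.33 to 0.84 in the others. Sftpc, the surfactant gene of type 2 cells, was at 1.51 in cardioGRMRdKO 1-month replicate 2, where Aqp5 was low, and from −7.23 to −2.98 in the other 11 hearts. Of the 8 markers 4 were lower in cardioGRMRdKO hearts at each age, none past the test. The genes nearest to Aqp5 by the same distance were Krt23, a keratin gene (0.52 log2 units), Clic6, a chloride channel gene (0.63), and Agr3, a gene of ciliated airway cells (0.66). The part of airway or lung tissue in the Aqp5 values was not tested.

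**Figure D4:**
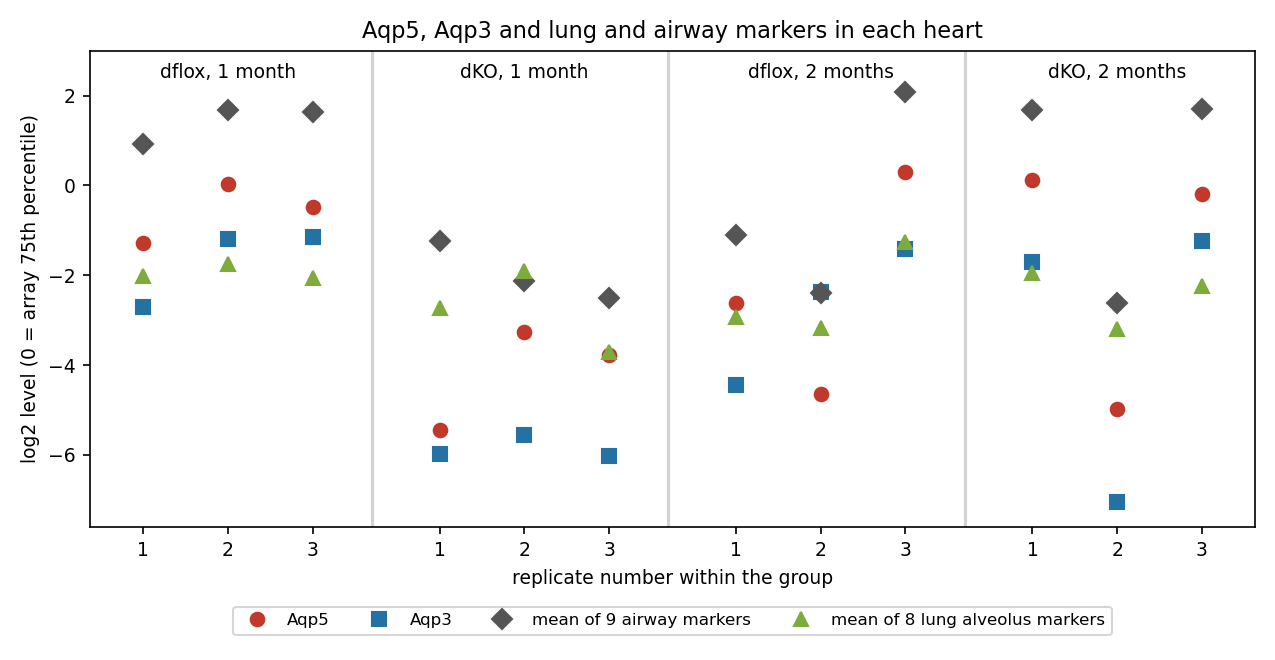
Log2 levels of Aqp5 and Aqp3 and the mean log2 level of 9 airway and 8 lung alveolus markers in each of the 12 hearts (dKO is cardioGRMRdKO). Aqp5 and the airway mean are high together in the same 6 hearts, and all 3 cardioGRMRdKO hearts of 1 month are low in both.

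Among the 6 aquaporin genes of the array outside the members, Aqp2 and Aqp3 were tested. Mip, Aqp6, Aqp9 and Aqp12 did not reach the filter on dim probes in any group. Aqp3, a basal epithelial channel that neighbours Aqp7 on chromosome 4 with 58.7 kb between their probes, differed by −4.17 between the genotypes at 1 month (SE 1.34, adjusted p = 0.264), with 1 of 3 cardioGRMRdKO arrays well above background. Like Aqp5 it was high in dflox 2-month replicate 3 (−1.42) and cardioGRMRdKO 2-month replicates 1 and 3 (−1.70 and −1.24), and low in replicate 2 of that last group (−7.05). Unlike Aqp5, which was at −4.64 in dflox 2-month replicate 2, Aqp3 stood at −2.38 there, above dflox 1-month replicate 1 (−2.70).

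Aqp2, the vasopressin-regulated channel of kidney, lies next to Aqp5 on chromosome 15 with 11.6 kb between their probes. It was well above background on all 12 arrays. Its genotype differences were 0.11 at both ages, with an SE of 0.757. The spread followed the slide instead: the 4 hearts of slide 1 lay between −1.91 and −1.49, those of slide 2 between −0.44 and 0.24 and those of slide 3 between 0.07 and 0.45. Aqp2 was looked at by slide after its values were seen. Of genes with all values 1.63% had the slide 1 hearts apart from the other 8, and 7 genes (0.0393%), Aqp2 among them, had so wide a gap.

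**Figure D5:**
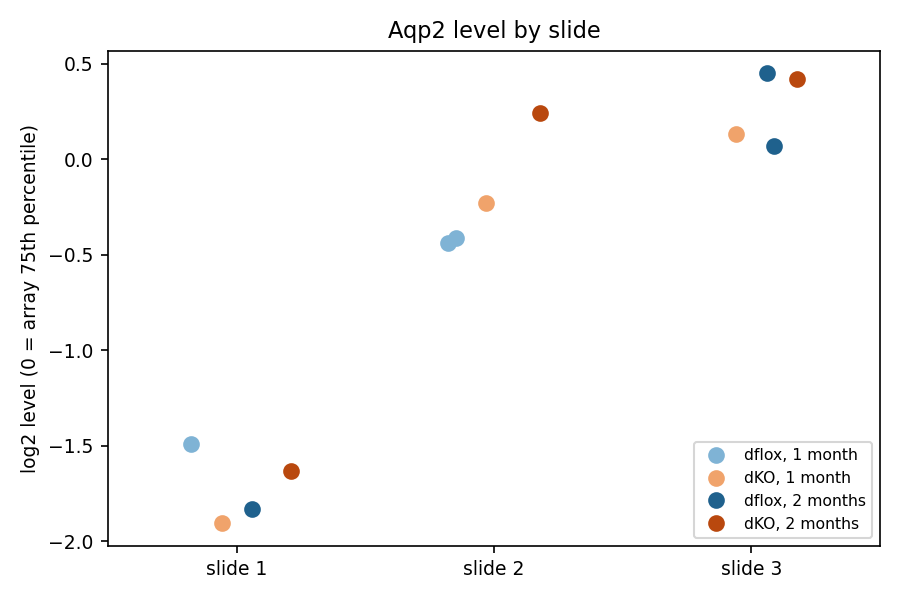
Log2 level of Aqp2 in the 12 hearts, placed by slide and coloured by group (dKO is cardioGRMRdKO). The 4 hearts of slide 1, 1 from each group, lie at or below −1.49, and the other 8 at or above −0.44.

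The members Aqp8 and Aqp4 were not split by slide in this way. On slide 1 Aqp8 ran from −2.36 to 2.04, on slide 2 from −1.88 to 1.87 and on slide 3 from −0.30 to 2.18. Aqp4 on its brightest probe ran from −3.31 to −1.30, from −3.53 to −1.52 and from −3.83 to −2.08.

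The partner genes of these channels were read from 5 lists with 105 tested genes of 111. At 1 month 1 of them rose and none fell, and at 2 months 2 rose and 2 fell, which is 0.952% and 3.81% of the lists against 0.969% and 2.31% of all genes. The list of the dystrophin complex, which anchors Aqp4 in muscle and brain, had 17 of 17 members tested. Nos1, the neuronal nitric oxide synthase, rose by 2.05 at 1 month (SE 0.234, adjusted p = 0.00269) and 2.82 at 2 months (SE 0.234, adjusted p = 3.64e-04). Sgca, the α-sarcoglycan gene, fell by 0.51 at 2 months (SE 0.102, adjusted p = 0.0305). Dmd, the dystrophin gene, stood at −0.18 and −0.52, neither of which passed. The list's median was −0.08 at 1 month and −0.13 at 2 months, beside −0.0011 and −0.10 over all genes.

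Of 23 glycerol and lipid droplet genes, Plin3, which coats lipid droplets, fell by 0.95 at 2 months (SE 0.174, adjusted p = 0.0193), and no other passed in any comparison. Gk, the glycerol kinase that acts on what Aqp7 lets in, stood at 0.14 and 0.45 (adjusted p = 0.973 and 0.201). The median of the list was −0.24 at 1 month and 0.13 at 2 months, and it shares Plin1, Cidea and Cidec with the adipocyte markers. Ammonia is a substrate of Aqp8. Of 12 tested genes of ammonia and urea handling, Asl, the argininosuccinate lyase gene, rose by 0.84 at 2 months (SE 0.155, adjusted p = 0.0194).

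Of 27 genes of hydrogen peroxide handling, Gpx7, a peroxidase of the endoplasmic reticulum, fell by 0.59 with age in dflox hearts (SE 0.108, adjusted p = 0.0479), and none passed for genotype. No gene of the 26 for cell volume and osmotic response passed in any comparison, with medians of −0.01 at 1 month and −0.05 at 2 months. The 4 calls at 2 months became 1 without dflox 2-month replicate 2 or 3, or without cardioGRMRdKO 2-month replicate 3. With age in dflox hearts a gene of these lists was called in 5 of 23 alternative fits.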

How the data were processed

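The deposited files are Agilent scanner outputs, 1 colour, 1 array per heart. Per the labels, the authors read Cy3-labelled cRNA with Agilent Feature Extraction 9.5 (9.5.3.1 per the file headers), and the deposited intensity of each spot is corrected for background and spatial trend within the array, with no scaling between arrays. The authors' deposited values equal it at 100% of spots.

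Control and outlier spots were left out. Log2 intensities were centred on the 75th percentile of each array. Probes well above background on all 3 arrays of a group were kept (26999), and the brightest represented a gene, which gave 18273 genes, 477 of them lacking a value on at least 1 array. Means and sums of marker lists used the genes with a value in all hearts. Symbols were updated through RefSeq accessions (GRCm38.p6). limma 3.58.1 (R 4.3.3) was fitted to all 12 arrays with 4 group means, two-sided, with Benjamini-Hochberg adjusted p under 0.05 over all genes as the call. It was checked on simulated data of 17796 genes for the genotype comparison at 1 month, where it called 61% of genes changed by 1 log2 unit and 89% of those changed by 2. The number of arrays limits precision. Members and lists were chosen with earlier results of these data known. Named genes were all members, the called genes of each pathway list, the 5 genes nearest Aqp8 and the 3 nearest Aqp5, Nr3c1 and defining markers. Alternatives changed the scaling, background, filter, outliers, probe choice, slide, place, replicate number and hearts fitted.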

Additional observations from a re-analysis of the deposited data

How the results depend on the processing

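Aqp8 kept its direction for genotype and age in all 23 alternative fits, at 1.68 to 2.34 and 1.43 to 1.79 for genotype at 1 and 2 months, and 1.70 to 2.52 and 1.55 to 2.05 for age in dflox and cardioGRMRdKO hearts. Leaving out 1 heart at a time gave 1.68 to 2.34, 1.43 to 1.75, 1.86 to 2.52 and 1.55 to 2.05. Within slides it moved to 3.05 and 2.06 for genotype on slide 1, and to 1.35 and 2.49 for age in cardioGRMRdKO hearts on slides 1 and 3. Its genotype by age term ran from −0.70 to −0.044 without single hearts and turned positive with normexp (0.058). Of the other 5 aquaporins, the number called was 1 with age in cardioGRMRdKO hearts and 0 under quantile normalization, no filter, the mean of probes, the place on the slide or only the groups compared, and 0 to 1 without single hearts. For genotype at 1 month it was 0, and 1 with probes above background on all arrays, the slide as a random block or the replicate block, and 0 to 1 without single hearts. With age in dflox it was 0, and 1 with probes above background on all arrays. For genotype at 2 months it was 1, and 0 with only the groups compared. In each case the gene was Aqp4, and the cause was not tested.

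Uncalled values that changed sign were Aqp1 with age in dflox (−0.067) and Aqp11 with age in cardioGRMRdKO (−0.029) under normexp. With the slide as a term they were Aqp5 for genotype at 2 months (−0.26) and age in dflox (0.053), and the genotype by age term of Aqp7 (0.011). With the place as a term they were Aqp1 (−0.10) and Aqp11 (0.080) at 1 month, and Aqp11 with age in cardioGRMRdKO (−0.065). Without single hearts the ranges that crossed 0 were −0.076 to 0.16 for Aqp1 at 1 month, −0.52 to 2.29 for Aqp5 at 2 months and −0.19 to 0.087 for the genotype by age term of Aqp7. For age in cardioGRMRdKO hearts they were −0.27 to 0.048 for Aqp1, −0.013 to 0.27 for Aqp7 and −0.051 to 0.13 for Aqp11.

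Replicate numbers did not pair the hearts: 18 same-number pairs had correlations from −0.49 to 0.55 and 3 of 12 hearts correlated best with their own number. Same-slide pairs, some of them also of the same number, ran from −0.17 to 0.55. Of these 16 pairs 11 were over 0.1, against 5 of the 18 same-number pairs. The main fit held no slide term. With the replicate block the genes called for age in cardioGRMRdKO hearts went from 69 to 31. Over all alternatives the genes called ranged from 9 to 232 and 97 to 451 for genotype at 1 and 2 months, and from 0 to 175 and 0 to 85 for age in dflox and cardioGRMRdKO hearts. For genotype by age limma called 0 genes (643 at unadjusted p under 0.05), and 1 with the place as a term. Aqp5 was not tested with probes above background on all arrays. With 3 hearts per group, differences of dim or scattered genes such as Aqp5 are poorly bounded.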
